A study of Mus musculus with 15 samples.

Results

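The genes of translation initiation and elongation were followed through the embryonic mouse lens. They were taken as every gene whose symbol begins with Eif or Eef and a digit, with transcripts that only overlap an exon on the other strand left out, and with the values of a gene's remaining transcripts summed. This gave 64 of 14615 gene symbols, carried by 256 assembled transcripts, and 62 of the 64 are not named as pseudogenes. RNA-seq had been made from wild-type C57BL/6NTac embryos. Lenses were dissected at 4 stages, E10.5 (embryonic day), E12.5, then E14.5 and last E16.5, with pools of 50, 29, 18 and 17 lenses per library. The reference, called whole body here, was whole embryos, whose label gives their age as E10.5-12.5, with E11.5 among the days in the protocol. Which age each whole-body library holds within that range is not given in the sources used here, so whole body is a reference of mixed tissue and is not matched in age to the later lenses. Each of the 5 groups had 3 libraries that the labels call biological replicates. Values are FPKM, that is fragments counted for a transcript, scaled to its length and to the library, as deposited, and the sequencing depth behind them is unknown.

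Initiation brings the small ribosomal subunit and the initiator tRNA to the start codon of an mRNA. The tRNA is carried by eIF2 as a GTP complex, which eIF2B recharges and which 4 kinases can shut down by phosphorylating its alpha subunit. The mRNA is bound at its cap by eIF4E, which is held by the scaffold eIF4G and blocked by the 4E-binding proteins. The large complex eIF3 links the subunit to the mRNA, and eIF1, eIF1A, eIF5 and eIF5B select the start codon and join the large subunit. Elongation is driven by eEF1, which delivers tRNAs, and eEF2, which moves the ribosome along and is inhibited by its own kinase. Lens fibre cells are known for packing themselves with crystallins, made from very abundant mRNAs.

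All 64 members passed the low-value filter, which asked 3 or more of the 15 libraries to reach 1 FPKM, although Eif3s6-ps2 did so only through whole body. The lens label held in its markers, since all 13 listed lens markers were higher in lens than in whole body at E10.5 and at E16.5. Markers of surrounding tissue were less even. The summed FPKM of 10 periocular mesenchyme markers was 415.9, 402.5 and 2851 in the E10.5 libraries against 184.9 to 249.8 at E16.5, and that of 7 liver markers was 533.4, 22.54 and 993.5 against 14.77 to 20.08. E10.5 replicate 2 was the only E10.5 library low in both lists, although replicate 1 was as low in the mesenchyme list. Mesenchyme markers were also uneven at E12.5, at 1290, 567.8 and 459.9. The sum of 10 erythroid markers was 2191 to 5027 at E10.5, 3548 to 7887 at E12.5 and 309.4 to 592.3 at E16.5. All 11 macrophage markers were lower at E16.5 than at E10.5. Some results that rest on E10.5 are therefore also described from replicate 2 alone, a choice made after seeing these values. In that fit the lone library was assumed to vary like the other groups. Results without such a description did not all keep their call there. Shares of all genes are not given for fits that leave out libraries, so fewer calls there cannot be told from fewer libraries. The part of cells from surrounding tissue in the results was not tested.

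In bulk samples, fewer cells of a type and less RNA per cell cannot be told apart. The crystallins took 0.0577% ± 0.011 of the summed FPKM at E10.5 and 32.0% ± 4.76 at E16.5 (SD, n = 3), while the FPKM sum of a library itself rose from 746702 ± 29651 to 1532439 ± 107320. The 64 members together made up 2.88% ± 0.141 of all FPKM at E10.5 and 2.03% ± 0.134 at E16.5. When crystallins were left out of the total, the share was 2.88% ± 0.141 at E10.5 and 2.98% ± 0.0115 at E16.5, and whole body had 2.57% ± 0.0714. The E10.5 and E16.5 shares differed by less than the spread of the E10.5 libraries, while the members' own summed FPKM was 21506 ± 1874 at E10.5 and 30976 ± 1157 at E16.5, with no overlap. Directions below were therefore read under the deposited values and under 3 rescalings: crystallins left out with totals made equal, quantile normalization, and median-of-ratios size factors. The first of these shifted the all-gene median log2 fold change by -0.383 for E16.5 against E10.5, by -0.177, -0.403 and -0.475 for E12.5, E14.5 and E16.5 against whole body, and by -0.108 and -0.207 for the steps to E12.5 and E14.5. Quantile normalization shifted it by 0.103 and 0.111 for E10.5 and E14.5 against whole body, and size factors by less than 0.1 throughout. Dropping crystallins changes no other gene's FPKM, so the shift of the first rescaling comes from making the remaining totals equal. That rescaling is written below as with crystallins left out.

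Log2 fold changes below come from limma on log2(FPKM + 1), given as estimate ± SE with Benjamini-Hochberg adjusted p over 14532 genes, and understate the change of low genes. A member was called at adjusted p under 0.05. Between E10.5 and E16.5, 41 of 64 members were higher and 11 were lower, where 37.2% of all genes were called higher and 36.7% lower (73.9% in all). The median member moved by 0.395 on the log2 scale, against -0.011 over all genes. With crystallins left out, the same comparison called 22 higher and 26 lower, where 23.5% and 53.5% of all genes were, with medians of -0.063 for the members and -0.395 for all genes. Quantile normalization also gave 22 and 26 (34.7% and 38.7% of all genes), and size factors gave 38 and 12 (35.7% and 39.0%). The fit from E10.5 replicate 2 alone gave fewer higher calls.

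Which members rose therefore depended on the scale for 22 of the 41. The other 19 were called higher under all 4 scalings, and 10 of 11 were called lower under all 4. The share of all genes called the same way under all 4 scalings, or in opposite directions, was not counted. Whether the members stand out from other genes in this was therefore not tested. The 19 included the alpha and beta subunits of eIF2, eIF4E with its relatives Eif4e2 and Eif4e3, the scaffold Eif4g3, Eif5 and Eif5b, the eIF3 subunits Eif3g, Eif3i and Eif3j1, and the elongation genes Eef1d, Eif5a2 and Eef1a2. The 10 included the eEF2 kinase, the 4E-binding protein Eif4ebp2 with the eIF4E transporter Eif4enif1, the eIF2 kinases Eif2ak2 and Eif2ak4, Eif4a3, Eif4h, Eif2d, Eef1e1 and Eif1ad. The reverse was seen for 7 members, Eif2b5, Eif3e, Eif3l, Eif3m, Eif4b, Eif4ebp1 and Eif5a, which were called higher as deposited and lower with crystallins left out.

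**Figure D1:**
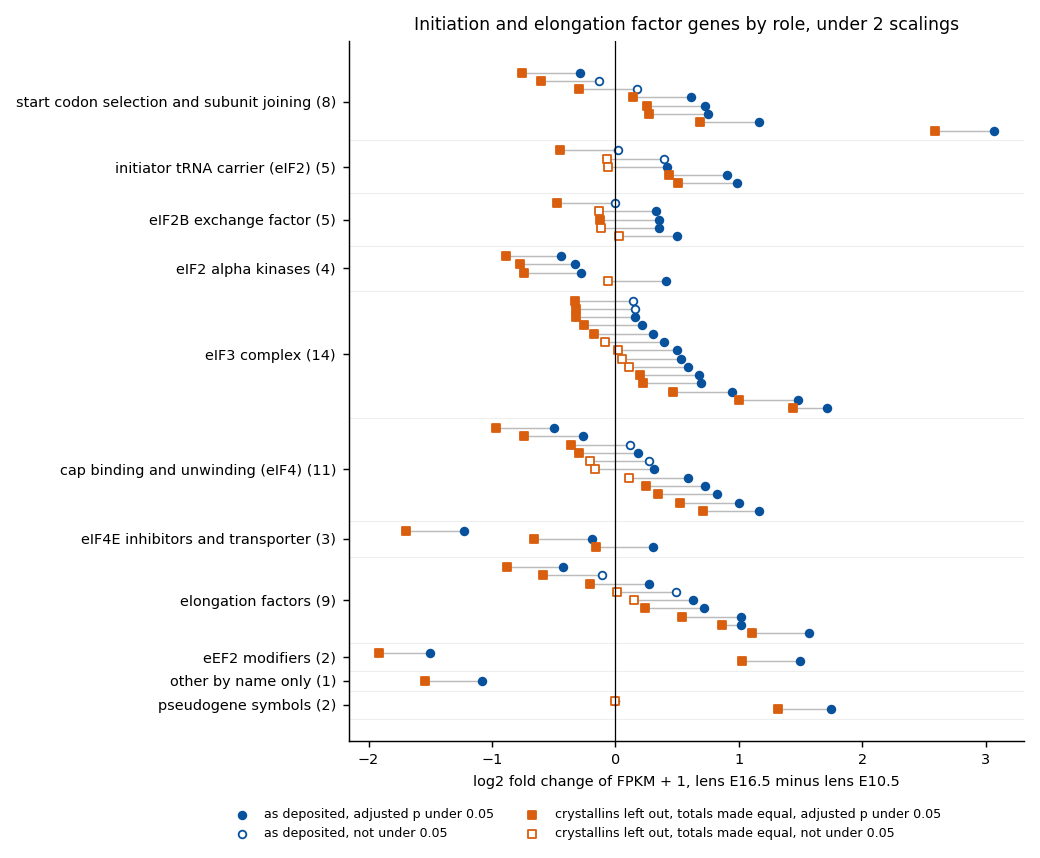
Log2 fold change of each of the 64 members between lens E10.5 and E16.5, grouped by role, from the deposited FPKM (blue circles) and after the rescaling without crystallins (orange squares), filled where the limma adjusted p was under 0.05. Making totals equal without crystallins shifts nearly every member to the left by about the same step. Genes near 0 change side, while Eif5b at the far right and the eEF2 kinase at the far left keep theirs.

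eIF2 delivers the initiator tRNA. Eif2s1, its alpha subunit (chromosome 12, 78861819 to 78887010, plus strand, GENCODE vM21 on GRCm38), was at 111.5, 138.1 and 135.7 FPKM in the E10.5 libraries and at 166.1, 181.4 and 183.3 at E12.5. It reached 308.3, 252.6 and 251.1 at E14.5 and 236.5, 274.6 and 252.0 in the last stage. The E10.5 and E16.5 libraries did not overlap, and E14.5 was already at the later level. Eif2s1 rose by 0.98 ± 0.095 between E10.5 and E16.5 (adjusted p = 2.24e-07), and by 0.51 with crystallins left out. Eif2s2, the beta subunit, was at 188.6, 205.7 and 200.5 FPKM at E10.5 and at 366.4, 398.0 and 354.8 at E16.5. Its rise was 0.91 ± 0.079 (adjusted p = 6.92e-08), and 0.67 ± 0.079 of log2 change fell between E12.5 and E14.5 (adjusted p = 1.33e-05). The X-linked gamma subunit Eif2s3x was called higher as deposited at 0.42 ± 0.107 (adjusted p = 0.00267), but its value was -0.06 with crystallins left out and -0.15 under quantile normalization. From E10.5 replicate 2 alone it was not called (0.325, adjusted p = 0.0867).

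The Y-linked gamma subunit, Eif2s3y, was not called between E10.5 and E16.5 (0.40 ± 0.439, adjusted p = 0.429), with E16.5 at 25.92, 31.64 and 57.67 FPKM. Little of this was the annotated coding transcript, which held 0.315% ± 0.546 of the gene's FPKM at E10.5 and 5.64% ± 3.06 at E16.5, whereas it held 36.7% ± 7.65 in whole body. Over that transcript alone Eif2s3y was called higher (1.48, adjusted p = 0.00866), from a mean of 0.0733 to 2.4 FPKM. In whole body Eif2s3y was at 12.97, 61.23 and 12.16 FPKM, so replicate 2 stood apart. The Y-linked genes Ddx3y, Kdm5d and Uty stood apart in the same library, with Ddx3y at 48.13 against 11.28 and 11.59. Xist, the RNA that silences an X chromosome in females, was at 0.96 FPKM there against 245.4 and 293.8. All 12 lens libraries held both Y-linked RNA and Xist. The level of Eif2s3y in whole body moved with these sex-linked genes, and the part of the embryos' sex in group differences was not tested.

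**Figure D2:**
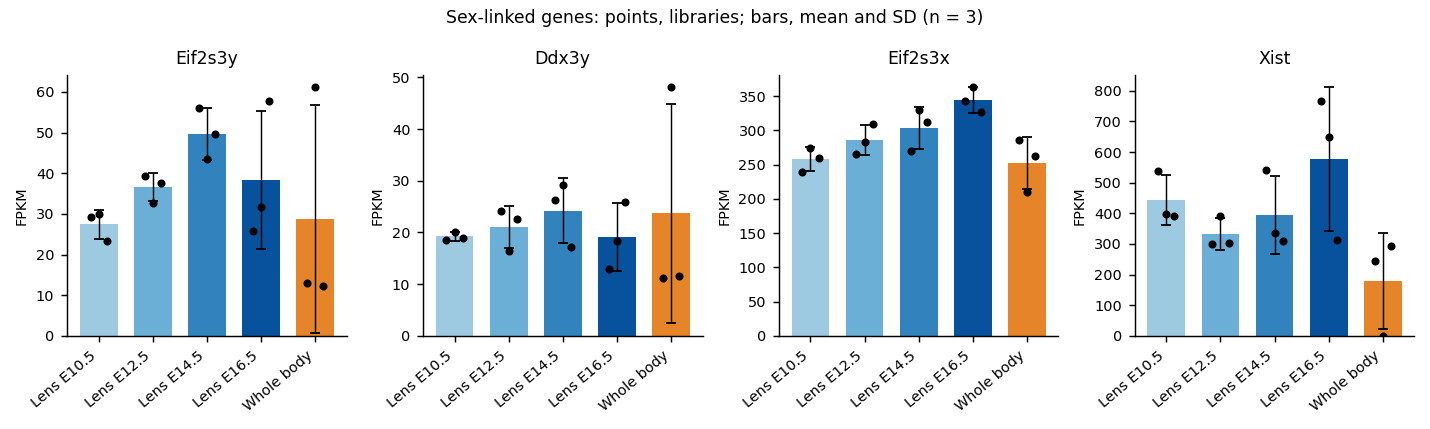
FPKM of Eif2s3y, Ddx3y, Eif2s3x and Xist in each of the 15 libraries (points), with group mean and SD (bars and error bars, n = 3). In whole body, replicate 2 is high in both Y-linked genes and near 0 in Xist, while the other 2 libraries show the opposite.

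eIF2B recharges eIF2 with GTP and has 5 genes here. As deposited, 4 of 5 were higher at E16.5 than at E10.5 (37.2% of all genes), with Eif2b5, the catalytic subunit, at 0.35 ± 0.068 (adjusted p = 0.000289) and Eif2b1 not called (-0.004 ± 0.076, adjusted p = 0.967). With crystallins left out, 0 of 5 were higher and 2 were lower, Eif2b1 (-0.47) and Eif2b5 (-0.12), where 23.5% and 53.5% of all genes were. Of the 4 kinases that phosphorylate eIF2 alpha, 3 were lower and 1 was higher as deposited (36.7% and 37.2% of all genes). Eif2ak4, the amino acid sensing kinase GCN2, fell by 0.28 ± 0.078 (adjusted p = 0.00505), and Eif2ak2, the double-stranded RNA kinase PKR, fell by 0.44 ± 0.124 (adjusted p = 0.00496), both on every scale. Eif2ak3, the endoplasmic reticulum stress kinase PERK, was lower as deposited (-0.32 ± 0.124, adjusted p = 0.0281), but the call was lost under quantile normalization (-0.25) and without any 1 of 4 libraries, with adjusted p up to 0.103 without E16.5 replicate 1. Over protein-coding transcripts alone the value of Eif2ak3 was -0.04 (adjusted p = 0.925). Eif2ak1, the heme-regulated kinase, was higher as deposited at 0.41 ± 0.067 and was at -0.06 with crystallins left out.

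With all transcripts of a gene summed, Eif5b gave the largest change of any member between E10.5 and E16.5. Over protein-coding transcripts alone it rose by 1.502, and Eif3j2 (1.715), Eef2kmt (1.592) and Eif5a2 (1.569) were above it. The GTPase eIF5B joins the large ribosomal subunit. The gene lies on chromosome 1, 37998010 to 38055579, plus strand. Its summed FPKM was 159.2, 184.2 and 190.3 at E10.5, 173.4, 182.0 and 214.2 at E12.5, 612.6, 691.0 and 641.9 at E14.5, and 1506, 1716 and 1284 at E16.5, against 184.3 to 214.8 in whole body. The E10.5 and E12.5 lens overlapped whole body, and the E14.5 and E16.5 libraries overlapped no earlier stage. The change was 3.07 ± 0.111 (adjusted p = 5.89e-12) and held on every scale, and Eif5b and the near-silent Eef1a2 were the 2 members called higher between E14.5 and E16.5, where 5.97% of all genes were.

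More of that rise lay outside the annotated coding transcript than in it. The protein-coding transcript, at 71.8 ± 11.1 FPKM at E10.5, was at 204 ± 20.1 at E16.5 (SD, n = 3). A transcript annotated as a retained intron went from 103 ± 5.63 to 541 ± 54.9 FPKM. A pair of assembled transcripts that share at least 1 splice junction with the coding reference but do not match it were at 0 in all 3 E10.5 libraries and at 345 ± 59.3 and 324 ± 71.1 at E16.5. The coding transcript's share of the gene's FPKM fell from 40.2% ± 2.74 to 13.7% ± 0.639, by 26.6 percentage points. Across the 60 members with an annotated coding transcript and a mean of at least 10 FPKM, the median change was 0. Over protein-coding transcripts alone, the step of Eif5b from E14.5 to E16.5 was 0.27, not called (adjusted p = 0.266). Exons of the antisense gene Rev1 overlap 16.8% of Eif5b's exonic bases. Whether the libraries kept strand is not given in the sources used here, so reads from both genes cannot be told apart there.

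**Figure D3:**
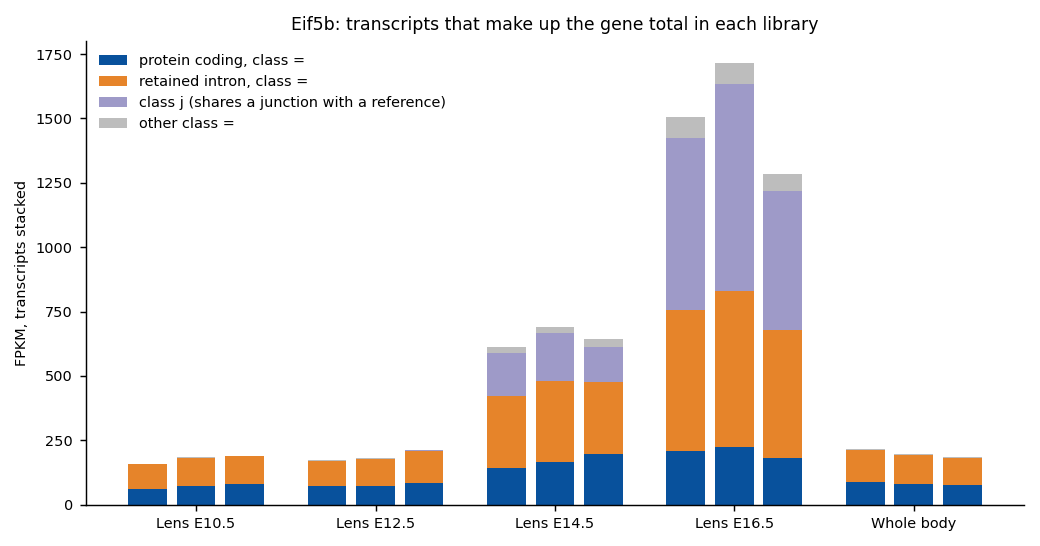
FPKM of the Eif5b transcripts stacked by library for the 5 groups, coloured by annotated protein-coding, annotated retained-intron, other annotated, and assembled transcripts that share a junction with the reference (class j). The class j part is at or near 0 through E12.5 and in whole body and makes up the largest gain from E14.5 to E16.5, while the coding part goes from 170 to 204 FPKM on average.

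Eif5, which triggers GTP hydrolysis by eIF2 at the start codon, was at 216.4, 226.1 and 202.7 FPKM at E10.5 and at 468.6, 539.3 and 442.4 at E16.5, with whole body between them at 320.7 to 341.7. It rose by 1.16 ± 0.085 (adjusted p = 1.06e-08) on every scale. Its level against whole body was lower at E10.5 (-0.61 ± 0.085, adjusted p = 2.51e-05) on every scale and higher at E16.5 as deposited (0.55 ± 0.085, adjusted p = 2.59e-05), which became 0.02 with crystallins left out and -0.21 under quantile normalization. Eif1, which guards start codon choice, rose by 0.75 ± 0.095 as deposited and was not called under quantile normalization (0.17). Eif1ax rose by 0.62 ± 0.08 and Eif1b by 0.73 ± 0.102, on every scale. Eif6, which keeps the subunits apart, was not called as deposited (-0.13 ± 0.072, adjusted p = 0.111), and was called lower under each of the 3 rescalings.

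The eIF3 complex has 14 genes here, and 12 were higher and none lower at E16.5 than at E10.5 as deposited (37.2% and 36.7% of all genes). With crystallins left out, 5 were higher and 5 lower, against the 23.5% and 53.5% of all genes on that scale, so the sign of the change was not shared by all subunits on that scale. Eif3i (0.94 ± 0.079) and Eif3g (0.70 ± 0.082) were higher on every scale, whereas Eif3e was higher at 0.30 ± 0.079 as deposited and lower at -0.17 with crystallins left out, and from E10.5 replicate 2 alone it was not called (0.18, adjusted p = 0.143). Eif3a, the large scaffold subunit, was higher at 0.39 ± 0.101 as deposited and lower at -0.23 under quantile normalization.

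Eif3j1, a loosely bound subunit of eIF3 (chromosome 2, 122028546 to 122056598, plus strand), had the highest log2 fold change of any member over whole body at E10.5, E12.5 and E14.5, and came after Eif5b at E16.5. It was at 47.16, 52.7 and 49.09 FPKM at E10.5 and at 94.86, 90.12 and 107.5 at E12.5. It reached 146.0, 160.9 and 141.7 FPKM at E14.5 and 126.4, 157.4 and 137.6 in the E16.5 lens, while whole body held 27.73, 25.16 and 21.59. Its log2 fold change over whole body was 0.98 ± 0.101 at E10.5 and 2.46 ± 0.101 at E16.5 (adjusted p = 1.01e-06 and 1.11e-11), and held on every scale. This gene has a near-perfect copy. Its coding sequence and that of Eif3j2 agree at 100% over 781 bases, so reads could be assigned to either. Eif3j2 was at 17.8, 13.21 and 13.68 FPKM in whole body and at 0.09 to 4.39 in all 12 lens libraries. The sum of both was 50.1 ± 2.43 at E10.5, 144 ± 16.1 at E16.5 and 39.7 ± 5.26 in whole body, so the gap to whole body was smaller in the sum, and the E10.5 libraries of the sum, from 48.03, were above whole body, up to 45.53. The exons of Spg11 overlap 19% of Eif3j1 on the other strand.

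eIF4A is the helicase that opens the mRNA, and Eif4a1 was at 1015, 1147 and 1095 FPKM at E10.5 and at 1116, 1189 and 1224 at E16.5, not called as deposited (0.12 ± 0.094, adjusted p = 0.275) but lower with crystallins left out (-0.36) and under quantile normalization (-0.90). In whole body it was at 728.3, 642.1 and 649.9. The pseudogene Eif4a-ps4 was at 76.93, 77.72 and 81.69 FPKM in whole body and at 3.55 to 6.29 in the E10.5 lens. In E10.5 lens Eif4a-ps4 was lower, with a log2 fold change of -3.803 ± 0.15 (adjusted p = 2.2e-11), on every scale. It rose in lens by 1.74 ± 0.15 between E10.5 and E16.5. The pseudogene (GENCODE vM21) matches the Eif4a1 coding sequence over 1218 bases with 1 mismatch, G534A, counted from 1 at the start codon of Eif4a1. The stretch around that base, with the differing base in capitals, is shown because it is the one place in the matched coding sequence where the pair differs.
Eif4a1: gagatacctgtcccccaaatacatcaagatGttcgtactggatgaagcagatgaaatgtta
Eif4a-ps4: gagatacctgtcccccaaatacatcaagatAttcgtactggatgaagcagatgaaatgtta
The sum of Eif4a1 and Eif4a-ps4 was 1090 ± 66.3 at E10.5, 1194 ± 55.1 at E16.5 and 752 ± 46.3 in whole body.

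**Figure D4:**
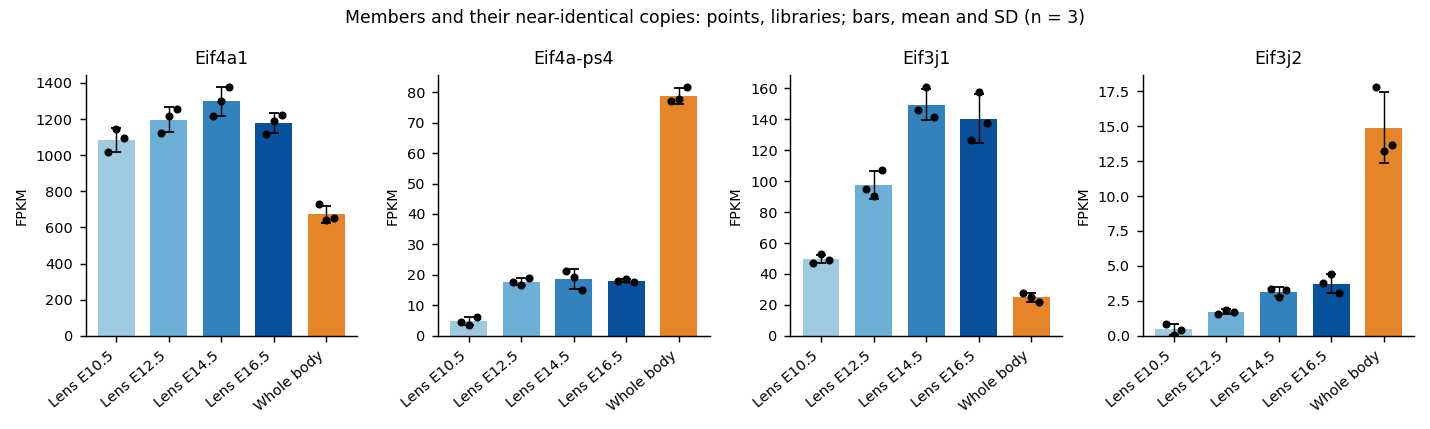
FPKM of Eif4a1, Eif4a-ps4, Eif3j1 and Eif3j2 in each library (points), with group mean and SD (bars and error bars, n = 3). Each copy is high in whole body and low in lens, the opposite of the gene it resembles.

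Many other genes with pseudogene symbols were also lower in lens. Of 85 genes outside the members with symbols ending in -ps and any number, 69 were lower in E10.5 lens than in whole body, where 31.2% of all genes were called lower, and 61 were lower at E16.5, where 43.4% were. Across the 3 rescalings the counts lower were 64 to 69 at E10.5 and 51 to 68 at E16.5. The 68 were found with crystallins left out, where 60.2% of all genes were lower. For the other rescaled counts no share of all genes is given. Some of these genes passed the low-value filter only with the help of whole body, where they had to be higher. Of the 51 that passed in the lens libraries alone, 35 were lower at E10.5 (31.2% of all genes) and 27 at E16.5 (43.4% of all genes). A copy was counted where an annotated pseudogene transcript matched a member's coding sequence at 90% or more over 300 bases. Members with no copy had a median log2 fold change over whole body of 0.37 at E16.5 as deposited (38 genes), those with 1 to 4 copies 0.54 (20 genes) and those with 5 or more 1.06 (4 genes). At E10.5 the same medians were 0.10, 0.09 and 0.44, with no step between the first 2 classes. The part of read assignment in the difference from whole body was not tested.

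At the cap, Eif4e was at 147.8, 154.4 and 143.8 FPKM at E10.5 and at 280.8, 335.1 and 280.8 at E16.5. It rose by 0.998 ± 0.075 (adjusted p = 1.41e-08), and by 0.52 with crystallins left out. The family members Eif4e2 (0.72 ± 0.056) and Eif4e3 (1.16 ± 0.115) rose too, on every scale. The scaffolds differed. Eif4g3 rose by 0.82 ± 0.085 (adjusted p = 4.92e-07) on every scale. Eif4g1 was called higher as deposited (0.32 ± 0.105, adjusted p = 0.014) but lay at -0.16 with crystallins left out, and without E10.5 replicate 1 it was not called (0.24, adjusted p = 0.0647). Eif4g2, a relative that does not bind eIF4E, was higher as deposited (0.59 ± 0.103) and lower under quantile normalization (-0.71). Its annotated coding transcripts carried 24.7% ± 1.37 of its FPKM at E10.5 and 33.4% ± 1.56 at E16.5, whereas whole body had 73.9% ± 0.265.

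The 4E-binding protein gene Eif4ebp2, whose product blocks eIF4E, went the other way. It lies on chromosome 10, 61428491 to 61452661, minus strand. It was at 208.8, 255.8 and 234.4 FPKM at E10.5 and at 166.2, 153.4 and 159.8 at E12.5. The E14.5 libraries held 119.1, 124.6 and 110.8 and the E16.5 libraries 93.01, 100.9 and 102.8, so that no 2 lens stages overlapped. It fell by 1.22 ± 0.074 between E10.5 and E16.5 (adjusted p = 1.23e-09) on every scale. The last step was a fall of 0.25 ± 0.074 (adjusted p = 0.0414), which was lost when any 1 of 9 libraries was left out, with adjusted p up to 0.162 without E16.5 replicate 1. Eif4ebp1 was higher than whole body at every stage on every scale, by 0.82 ± 0.072 at E16.5 as deposited. The log2 ratio of Eif4ebp2 to Eif4ebp1 was 2.67 ± 0.13 at E10.5 and 1.14 ± 0.105 at E16.5 (SD, n = 3).

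**Figure D5:**
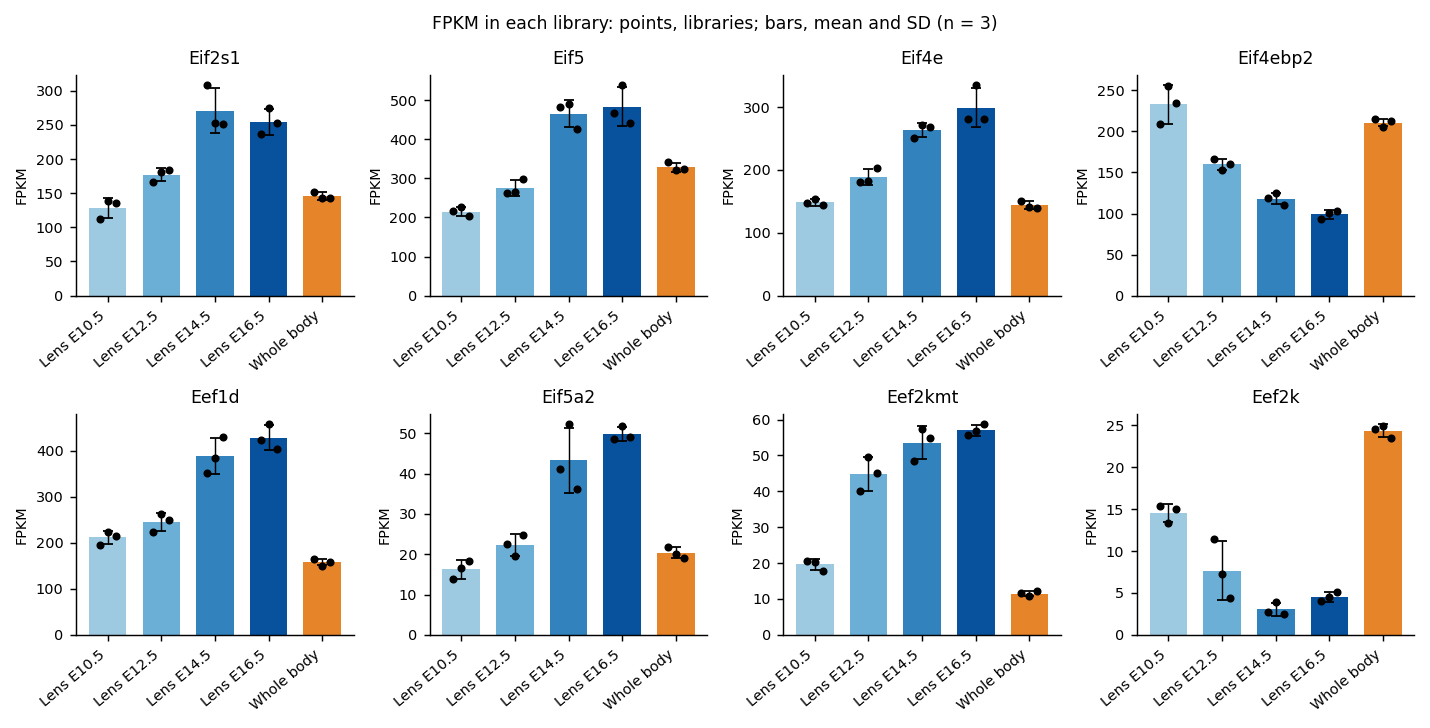
FPKM of 8 members in each library (points), with group mean and SD (bars and error bars, n = 3). Eif2s1, Eif5, Eif4e, Eef1d, Eif5a2 and Eef2kmt are higher at E16.5 than at E10.5, and Eif4ebp2 and Eef2k are lower.

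Among the elongation genes, Eef1a1, the most abundant member, was at 6182, 7757 and 7406 FPKM at E10.5 and at 9837, 10220 and 9831 at E16.5. It was not called (0.49 ± 0.234, adjusted p = 0.0698), although the groups did not overlap and it was called higher without the mean-variance trend (adjusted p = 0.000232), over protein-coding transcripts (0.52, adjusted p = 0.00875) and without E14.5 replicate 1 (adjusted p = 0.0426). Its value was 0.01 with crystallins left out, and under quantile normalization it was called lower, at -2.50. Eef2 was at 1687, 2010 and 2127 FPKM at E10.5 and at 3040, 3318 and 3157 at E16.5, higher by 0.71 ± 0.134 as deposited (adjusted p = 0.000197). Eef2 stayed called higher with crystallins left out and under size factors, but was called lower at -1.61 under quantile normalization. The sign for the 2 most abundant members thus turned under quantile normalization. Of the eEF1B exchange factor genes, Eef1d rose by 1.02 ± 0.086 (adjusted p = 5.42e-08) on every scale, from 195.6, 224.0 and 215.3 to 424.3, 457.2 and 404.3 FPKM. Eef1b2 was not called (-0.11 ± 0.091, adjusted p = 0.294) but was lower with crystallins left out (-0.59), under quantile normalization (-0.71) and from E10.5 replicate 2 alone (-0.30, adjusted p = 0.0269), and Eef1g was higher as deposited (0.63 ± 0.101) but -0.25 under quantile normalization. Eef1g was raised over whole body at all 4 stages on every scale, by 0.86 ± 0.101 at E10.5 and 1.48 ± 0.101 at E16.5. Eef1a2, the form of adult neurons and muscle, was at 0 to 0.28 FPKM at E10.5, at 0.74 to 1.58 at E16.5 and at 3.07 to 3.39 in whole body. The summed FPKM of 9 cardiac and skeletal muscle markers was 4.83 to 7.51 at E10.5, 69.69 to 130.9 at E16.5 and 565.8 to 602.6 in whole body, and that of 8 neuron markers was 6.32 to 15.89, 9.96 to 12.14 and 845.5 to 923.1. The part of those cells in the Eef1a2 values was not tested.

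eIF5A lets ribosomes through difficult stretches of protein and carries the amino acid hypusine. Its second gene Eif5a2 was at 13.83, 16.51 and 18.41 FPKM at E10.5 and at 48.66, 51.81 and 49.18 at E16.5. It rose by 1.57 ± 0.131 (adjusted p = 4.44e-08) on every scale, while Eif5a, at 639.7 to 727.3 and 780.0 to 840.8 FPKM, was at 0.27 ± 0.083 and higher as deposited, and at -0.21 and lower with crystallins left out. The log2 ratio of Eif5a2 to Eif5a was -5.31 ± 0.175 at E10.5 and -4.01 ± 0.053 at E16.5.

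The genes acting on eEF2 moved apart. Eef2k, the kinase that stops eEF2 (chromosome 7, 120842831 to 120907450, plus strand), was at 24.57, 24.97 and 23.47 FPKM in whole body, 15.35, 13.35 and 15.02 at E10.5, and at 11.44, 7.21 and 4.38 at E12.5. It held 2.67, 3.9 and 2.53 FPKM at E14.5 and 3.99, 4.5 and 5.07 in the E16.5 lens. It fell by 1.499 ± 0.231 between E10.5 and E16.5 (adjusted p = 3.09e-05) on every scale, and the 3 E12.5 libraries lay far apart. Against whole body at E10.5 its fall was not called without E10.5 replicate 2 (-0.646, adjusted p = 0.0577). Eef2kmt, a lysine methyltransferase of eEF2, was at 20.71, 20.35 and 17.92 FPKM at E10.5 and at 55.61, 56.72 and 58.68 at E16.5. It rose by 1.49 ± 0.093 (adjusted p = 1.81e-09) on every scale, 1.15 ± 0.093 of it by E12.5 (adjusted p = 1.31e-07), and was higher than whole body at each stage. The exons of Alg1 overlap 17.6% of Eef2kmt on the other strand. Eif1ad, which shares a domain with eIF1A but is not an initiation factor, fell from 63.1, 71.06 and 67.35 FPKM to 28.76, 31.42 and 33.84, by 1.08 ± 0.072 (adjusted p = 3.8e-09), on every scale.

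By step, 24 members were higher and 8 lower at E12.5 than at E10.5, where 29.5% and 26.0% of all genes were (55.5% called). These were 14 and 14 with crystallins left out (23.5% and 34.6% of all genes), and quantile normalization gave 16 and 16, with no share of all genes given. From E10.5 replicate 2 alone fewer members were called in both directions, which cannot be told from the loss of libraries. Without E10.5 replicate 1 or E12.5 replicate 3 the higher count was 15 or 14. At E14.5 against E12.5, 28 were higher and 2 lower (21.2% and 22.4% of all genes, 43.7% called), the 2 being Eef2k and Eif4ebp2. Leaving out crystallins made this 12 and 14 (11.2% and 40.8% of all genes). Without E12.5 replicate 1, the library highest in mesenchyme markers, 19 were higher and 2 lower. At the same step all 11 macrophage, 9 of 10 periocular mesenchyme and 8 of 10 erythroid markers were lower, and their part in the members' counts was not tested. At E16.5 against E14.5, 2 were higher and 3 lower (5.97% and 4.03%, 10% called). The lower ones were Eef1e1 (-0.34 ± 0.09), Eif1a (-0.29 ± 0.082) and Eif4ebp2, and none of the 3 stayed called without E16.5 replicate 1.

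Against whole body, 20 members were higher and 10 lower at E10.5 (24.6% and 31.2% of all genes, 55.7% called), 33 and 11 at E12.5 (32.3% and 37.1%, 69.4% called), 45 and 11 at E14.5 (35.7% and 42.6%, 78.3% called) and 42 and 11 at E16.5 (36.8% and 43.4%, 80.2% called). These comparisons share the same 3 whole-body libraries. On every scale the lower count at each stage includes Eif3s6-ps2, which was at 0 FPKM in every lens library. It passed the filter only through whole body, so its direction was set by the filter. With crystallins left out the counts at E16.5 were 21 and 28 (23.4% and 60.2% of all genes). At E14.5 they were 23 and 23 (23.5% and 58.0%), and at E12.5 17 and 19 (24.9% and 46.0%). The 18 members higher on every scale at E16.5 included Eef1d, Eef1g, Eif2s1, Eif2s2, Eif4e, Eif4ebp1 and Eef2kmt. The share of all genes higher on every scale was not counted. From E10.5 replicate 2 alone, fewer members were called lower than whole body.

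Promoter windows of 300 bases, from 250 before to 50 after the annotated start, were found in RefSeq (GRCm38.p6) for 50 members, in 65 windows. The E-box CACGTG, read on both strands, lay in 21.5% of the member windows and 7.15% of all 32851 windows, and an ETS motif, CCGGAAG, in 30.8% and 8.86%. The cAMP response motif TGACGTCA lay in 1.54% and 1.79%, and the TATA box TATAAA in 7.69% and 13.6%. The full set of windows was not limited to genes expressed in these libraries and was not matched for base content. Whether these shares are particular to the members was therefore not tested. Of the 12 members with an E-box, 8 were higher and 2 lower at E16.5 than at E10.5 as deposited, and 4 and 5 with crystallins left out. Of the 38 without, 22 were higher and 9 lower as deposited, and 13 and 17 with crystallins left out. Of all genes, 37.2% were higher and 36.7% lower as deposited, and 23.5% and 53.5% with crystallins left out. The windows below hold 200 bases before and 20 after the start, with all matches of these motifs in capitals. They are from 2 members that rose on every scale and have an E-box, 2 whose sign changed under quantile normalization, and Eif5b, where no match was found.
Eif5a2: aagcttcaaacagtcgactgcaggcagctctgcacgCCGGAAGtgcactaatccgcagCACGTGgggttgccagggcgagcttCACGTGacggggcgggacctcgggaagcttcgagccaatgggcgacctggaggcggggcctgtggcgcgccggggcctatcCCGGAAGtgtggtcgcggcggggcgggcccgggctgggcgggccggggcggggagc
Eif4e: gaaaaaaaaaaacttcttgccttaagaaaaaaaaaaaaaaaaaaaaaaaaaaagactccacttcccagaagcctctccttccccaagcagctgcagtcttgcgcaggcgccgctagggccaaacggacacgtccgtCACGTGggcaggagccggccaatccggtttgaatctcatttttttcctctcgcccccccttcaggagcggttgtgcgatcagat
Eif4a1: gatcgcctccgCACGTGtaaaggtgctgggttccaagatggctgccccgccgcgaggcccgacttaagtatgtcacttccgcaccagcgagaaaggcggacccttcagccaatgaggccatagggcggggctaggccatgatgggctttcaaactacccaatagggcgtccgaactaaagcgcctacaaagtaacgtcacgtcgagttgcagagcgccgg
Eef2: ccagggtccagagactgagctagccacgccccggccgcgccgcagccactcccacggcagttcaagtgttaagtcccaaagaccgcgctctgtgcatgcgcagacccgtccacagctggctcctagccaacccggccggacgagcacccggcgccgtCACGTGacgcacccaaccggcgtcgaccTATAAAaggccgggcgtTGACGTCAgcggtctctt
Eif5b: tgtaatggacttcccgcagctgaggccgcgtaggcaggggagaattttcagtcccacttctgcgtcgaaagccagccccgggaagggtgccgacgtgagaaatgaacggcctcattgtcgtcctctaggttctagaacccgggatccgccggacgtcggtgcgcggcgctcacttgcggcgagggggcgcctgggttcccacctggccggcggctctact
The Eif5a2 window is chr3:28781077-28781296, that of Eif4e chr3:138527068-138527287, that of Eef2 chr10:81176431-81176650 and that of Eif5b chr1:37997810-37998029, all on the plus strand, and that of Eif4a1 chr11:69672404-69672623 on the minus strand. A match is a description of letters and says nothing of binding.

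Other genes of the pathway were read from lists, against the backgrounds of 37.2% higher and 36.7% lower as deposited, and of 23.5% and 53.5% with crystallins left out. Of 21 genes of mTORC1 and eIF4F signalling, 17 were higher and 3 lower at E16.5 than at E10.5 as deposited, and 8 and 7 with crystallins left out. Tsc2, a brake on mTORC1, went from 100.9 to 978.1 mean FPKM (3.26 ± 0.111, adjusted p = 3.09e-12) and Sesn1, another inhibitor, by 2.20 ± 0.117, while the eIF4E kinase gene Mknk1 fell by 0.97 ± 0.131 but was not called over protein-coding transcripts (-0.43, adjusted p = 0.236). Of 15 genes of the integrated stress response, 10 were higher and none lower as deposited, and 6 and 5 with crystallins left out. Nupr1 went from 6.65 to 683.7 mean FPKM (6.49 ± 0.163) and the cystine carrier Slc7a11 rose by 2.74 ± 0.185. Of 20 cytosolic tRNA synthetases, 12 were higher and 4 lower, and 8 and 9 with crystallins left out, with Cars (2.57 ± 0.103) and Sars (1.43 ± 0.097) at one end and Vars (-0.98 ± 0.083) and Wars (-0.55 ± 0.11) at the other. Of 13 termination and recycling genes, 8 were higher and 1 lower, and 3 and 5 with crystallins left out, with Hbs1l at 2.10 ± 0.117 and the release factor Etf1 at 1.22 ± 0.103. Of 11 genes of poly(A) binding, 6 were higher and 3 lower, and 3 and 4 with crystallins left out; Pabpc4 fell by 0.74 ± 0.078, and Pabpc1 was higher at 1.04 ± 0.108 as deposited and at -0.13 under quantile normalization. Of 13 modifying enzymes, 8 were higher and 2 lower, and 3 and 5 with crystallins left out, with Dohh, which completes hypusine on eIF5A, at 1.08 ± 0.077. Of 10 mitochondrial factors, 5 were higher and 2 lower, and 0 and 5 with crystallins left out.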

How the data were processed

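RNA-seq of 12 lens and 3 whole-body libraries was used as 1 deposited table of FPKM per assembled transcript. Per the submitters' processing notes, Trimmomatic, TopHat2 2.0.9, Cufflinks and Cuffnorm were used with build mm10. How Cuffnorm scaled the libraries is not given in the sources used here, and FPKM sums differed from 706887 to 1626262, so the deposited FPKM do not add to a common total. Depth is unknown, so no counting intervals are given.

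Of 48306 transcripts, 172 of class code x were left out, and FPKM were summed per symbol (14615). Genes under 1 FPKM in all but 2 libraries or fewer (80), and 3 genes at 0 beside a replicate of 50 FPKM or more, were not tested. limma 3.58.1 (R 4.3.3) was fitted on log2(FPKM + 1) over 14532 genes and all 15 libraries, with 1 mean per group, a trended prior and 10 residual degrees of freedom, for 8 comparisons. The fit was tested on simulated data with 200 changed genes of 14532. For E16.5 against E10.5, it recovered 75% of 1.5-fold and 99% of 2-fold changes and called 15 unchanged genes. The simulated noise was normal with the fit's own spread, and changed genes were drawn from those above about 10 FPKM. In the data 73.9% of all genes were called for that comparison, so these rates may not carry over. Python 3.11.15, pandas 2.3.3, numpy 2.4.6, matplotlib 3.10.9 and blastn 2.17.0 were used for the rest. Coordinates and transcript types are from GENCODE vM21, which held 99.1% of the table's 30879 reference transcripts.

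The members and gene lists were chosen with earlier results of these data known. Text names, for each comparison, the 5 highest and 5 lowest called members whose groups did not overlap and whose higher group averaged 10 FPKM or more, a set list of central factors, and up to 2 genes from each end of each pathway list. Other members named were picked after their values were seen. Alternatives changed the scaling, pseudocount, filter, transcripts summed, prior, libraries fitted and replicate block, and left out each library. Replicate numbers were not used to pair the libraries in the main fit, since the labels do not say that a number marks a shared litter or day.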

Additional observations from a re-analysis of the deposited data

Results flagged for a closer look

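In 5 members the lens-to-whole-body difference passed the test at both E10.5 and E16.5 with opposite signs as deposited, and the change between the ages passed limma's adjusted threshold. The same whole-body libraries enter both, so the difference of differences equals the lens change. Of all genes, 55.7% were called against whole body at E10.5, 80.2% at E16.5 and 73.9% between these lens ages. The share of all genes called with opposite signs at both ages was not counted. Whether the 5 members stand out from other genes was therefore not tested. Eif1ad went from 0.60 above whole body to -0.47 (difference -1.08, adjusted p = 3.8e-09). Eif1ax went from -0.29 to 0.33 (difference 0.62, adjusted p = 5.08e-06), Eif1b from -0.31 to 0.42 (0.73, adjusted p = 1.11e-05) and Eif4e3 from -0.47 to 0.69 (1.16, adjusted p = 2.98e-07). Eif5 went from -0.61 to 0.55 (1.16, adjusted p = 1.06e-08), and its E16.5 value became 0.02 with crystallins left out and -0.21 under quantile normalization. With crystallins left out, the E16.5 values of Eif1b (-0.10) and Eif4e3 (0.19) were not called and that of Eif1ax was called lower (-0.20, and -0.17 under quantile normalization). The opposite signs of Eif1ad held on every scale.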

How the results depend on the processing

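Of 1378 gene values under alternatives other than leaving out a library, 1294 kept their side of the threshold and any called direction. A further 24 changed sign where the main fit, the alternative or both called the gene. A change of sign with no call in either fit was counted as kept, and is not among the sign changes listed below. With crystallins left out, members higher and lower were 17 and 19, 23 and 23, and 21 and 28 at E12.5, E14.5 and E16.5 against whole body, 14 and 14, 12 and 14 for the steps to E12.5 and E14.5, 6 lower for the step to E16.5, and 22 and 26 for E16.5 against E10.5. Under quantile normalization, lower members were 17, 20, 24 and 27 against whole body, 16, 16 and 6 for the 3 steps and 26 for E16.5 against E10.5, and higher members were 26 and 25 at E14.5 and E16.5 against whole body, 12 for the step to E14.5 and 22 for E16.5 against E10.5. With a 1.5-fold minimum, higher and lower were 5 and 6, 11 and 5, 24 and 6, and 22 and 6 against whole body, 4 and 2, 8 and 1 for the steps to E12.5 and E14.5, 0 lower for the step to E16.5, and 25 and 3 for E16.5 against E10.5. With only the 2 groups compared, 1 was lower at the step to E14.5, and 1 higher and 0 lower at that to E16.5. That last step gave 1 lower with no trend and 1 higher with protein-coding transcripts only. From E10.5 replicate 2 alone, fewer were lower against whole body and fewer were higher at the step to E12.5. Where no share of all genes is given above, the counts here and in the leave-out fits below show only how calls move with the setting. They do not show how members compare with other genes.

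Leaving out 1 library gave 14 to 27 higher and 5 to 9 lower for the step to E12.5, and 0 to 4 lower for the step to E16.5, with 0 without E14.5 replicate 1, E16.5 replicate 1 or E16.5 replicate 2. Against whole body it gave 18 to 24 higher and 9 to 11 lower at E10.5, 31 to 34 and 9 to 11 at E12.5, 39 to 46 and 10 to 11 at E14.5, and 41 to 43 and 11 at E16.5. It gave 19 to 28 higher and 2 lower for the step to E14.5, 2 higher for that to E16.5, and 38 to 43 higher and 9 to 12 lower for E16.5 against E10.5.

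Among the genes followed under every alternative, signs for E16.5 against E10.5 changed with crystallins left out for Eif2s3x (-0.06), Eif3a (-0.084), Eif3e (-0.17), Eif4a1 (-0.36), Eif4g1 (-0.16), Eif2ak1 (-0.059), Eif2b5 (-0.12), Eif4ebp1 (-0.16) and Eif5a (-0.21). Outside these, Eif3l (-0.32), Eif3m (-0.255) and Eif4b (-0.30) also went from called higher to called lower. Under quantile normalization signs changed for Eif2s3x (-0.15), Eif3a (-0.23), Eif3e (-0.19), Eef2 (-1.61), Eef1g (-0.25), Eef1a1 (-2.50), Eif4a1 (-0.90), Eif4g1 (-0.36), Eif4g2 (-0.71), Eif2b5 (-0.0004), Eif5a (-0.39) and Pabpc1 (-0.13), and against whole body for Eef1a1 at E12.5 (-0.41) and Eif5 at E16.5 (-0.21). Dph2 was at 0.69 over protein-coding transcripts. At E16.5 the log2 ratio of Eef1a2 to Eef1a1 was -12.93 and of Eif3j2 to Eif3j1 -5.2 with a pseudocount of 0.1. Over class = transcripts, that of Eif4a2 to Eif4a1 was -2.01, of Eif4g3 to Eif4g1 -0.8, of Eif4g2 to Eif4g1 -0.27 and of Eif2s3y to Eif2s3x -5.45. The cause was not tested.

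The replicate block moved no count past 1.5 times and changed 2 of 129 gene calls, Eif4ebp2 for the step to E16.5 (-0.25, adjusted p = 0.0552) and Eif4a2 for E16.5 against E10.5 (0.27, adjusted p = 0.0449). Same-numbered libraries correlated at -0.0946 to 0.2373 over 30 pairs, 4 of them over 0.1. They fitted their own number best in 25 of 60 comparisons, each made among the 3 libraries of another group. Whether a number marks a shared litter or day cannot be told from these values.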
